A study of Mus musculus with 4 samples.

Results

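Fc-gamma receptors and the phagocytic C-type lectins were followed in N9 cells, a microglial cell line from the mouse, given nimodipine, a blocker of L-type calcium channels of the dihydropyridine class. The set held 10 genes of the 22180 with a probe set of their own. They were the activating receptors Fcgr1, Fcgr3 and Fcgr4, the inhibitory receptor Fcgr2b, the adaptor chain Fcer1g, the lectins Clec7a, Clec4n, Clec4d and Clec4e, and the kinase Syk. The members were chosen by gene symbol, with the probe set of highest mean over the arrays taken where a gene had several, and each of the 10 had 1 probe set. The list was drawn up when results of these arrays, among them the large differences of Fcgr1 and Clec7a at 10 µM, were already known, so those differences are given as a description. There were 4 arrays: 2 from cells given vehicle, 1 from cells at 10 µM nimodipine and 1 from cells at 20 µM nimodipine. All were N9 cells, and neither the exposure time nor the nature of the vehicle is stated in the sources used here. Whether arrays of the same group stem from separate cultures is not stated, so their spread, and p-values based on it, may be technical. Each dose had no replicate.

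Fc-gamma receptors bind the constant part of immunoglobulin G on coated particles. Fcgr1, which binds monomeric antibody with high affinity, and the lower-affinity Fcgr3 and Fcgr4 signal through Fcer1g, a small chain with an immunoreceptor tyrosine-based activation motif (ITAM) that recruits the kinase Syk. Fcgr2b carries the opposite motif in its own tail and recruits the phosphatase SHIP1, which damps the same cascade. The lectins read sugars and glycolipids on fungi, mycobacteria and dying cells. Clec7a (Dectin-1) binds beta-glucan and reaches Syk through a single tyrosine motif of its own, whereas Clec4n (Dectin-2) and Clec4e (Mincle) use Fcer1g, and Clec4d (MCL) pairs with Clec4e. In the brain these receptors are features of microglia and of macrophages.

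The promoters shown here are those of the 2 genes with the largest differences at 10 µM, Fcgr1 and Clec7a, of Fcgr4, whose nimodipine arrays both lay below vehicle, and of Fcgr2b, whose 4 values differed least. Each stretch runs from 250 bases before to 50 after an annotated start in RefSeq (GRCm38.p6), written 5′ to 3′ on the gene's strand. Capitals mark matches on either strand to TTCNNNGAA, the interferon-activated GAS element, to GAGGAA, a core of the motif of PU.1, and to TTGCNNAA, part of the C/EBP motif. The motif TGATGNAA, bound by pairs of C/EBP and ATF factors such as CHOP with ATF4, was searched in the same way. They lie at chr3:96293920-96294219 (minus strand, Fcgr1), chr1:171018676-171018975 (plus strand, Fcgr4), chr1:170976022-170976321 (minus strand, Fcgr2b) and chr6:129472730-129473029 (minus strand, the first of 2 listed starts of Clec7a).
Fcgr1: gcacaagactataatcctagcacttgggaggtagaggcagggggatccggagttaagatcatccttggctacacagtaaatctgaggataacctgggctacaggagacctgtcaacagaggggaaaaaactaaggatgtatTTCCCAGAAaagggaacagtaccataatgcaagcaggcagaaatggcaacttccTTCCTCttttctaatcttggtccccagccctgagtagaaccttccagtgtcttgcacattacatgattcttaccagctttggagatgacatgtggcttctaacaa
Fcgr4: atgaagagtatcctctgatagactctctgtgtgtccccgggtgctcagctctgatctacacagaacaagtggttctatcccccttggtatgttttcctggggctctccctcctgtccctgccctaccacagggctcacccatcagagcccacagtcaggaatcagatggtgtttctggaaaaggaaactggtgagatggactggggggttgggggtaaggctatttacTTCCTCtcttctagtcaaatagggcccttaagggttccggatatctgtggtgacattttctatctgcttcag
Fcgr2b: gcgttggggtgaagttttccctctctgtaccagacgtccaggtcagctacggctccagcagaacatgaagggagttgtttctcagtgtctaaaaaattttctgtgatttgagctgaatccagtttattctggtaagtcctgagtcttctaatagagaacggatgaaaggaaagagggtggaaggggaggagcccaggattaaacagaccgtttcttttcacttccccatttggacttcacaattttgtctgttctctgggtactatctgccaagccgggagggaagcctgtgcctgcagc
Clec7a: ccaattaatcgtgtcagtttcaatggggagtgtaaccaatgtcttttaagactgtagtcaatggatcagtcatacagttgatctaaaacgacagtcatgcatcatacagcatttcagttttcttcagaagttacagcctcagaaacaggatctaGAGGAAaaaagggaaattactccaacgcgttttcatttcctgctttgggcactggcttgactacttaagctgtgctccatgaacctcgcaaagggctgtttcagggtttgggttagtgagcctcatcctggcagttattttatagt

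Of the 9 members with a promoter in that table, Fcgr1 held a GAS match, at position -109 from the start site, and the other 8 held none. Among all 32851 promoters of the same length, 8.30% held one. A PU.1 core was present in 7 of 9 (Fcgr1, Fcgr3, Fcgr4, Clec7a, Clec4d, Clec4e and 1 of the 2 listed starts of Syk), against 28.3% of all promoters. Members are counted by gene, with a match at any listed start, whereas the shares of all promoters are by promoter. The units therefore differ, and Fcgr3, Clec7a and Syk had 2 listed starts each. The C/EBP match was present in Fcgr3 and Clec4e, against 10.8%, and the C/EBP-ATF composite in 0 of 9, against 3.97%. Fcgr2b and Fcer1g held none of the 4. These are matches of letters in a short window and do not show that a factor was bound.

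The values below are the deposited log2 expression values, which were quantile-normalized across arrays, a step that hides any shift common to most genes. Their overall median was 5.04, with array medians of 5.02 to 5.06. The mean of each of the 10 members reached that median. Of 11 measured microglia and macrophage markers 8 did, among them Cd68 (13.5), Csf1r (11.8) and Cx3cr1 (6.62) over the arrays. Those that did not were P2ry12 (4.50) and Tmem119 (4.68), markers of resting microglia, and the macrophage marker Adgre1 (4.54). Over all 11 markers the median difference from vehicle was -0.15 at 10 µM and -0.00 at 20 µM. Of other cell types, 1 of 4 B-cell, 0 of 4 natural killer and T-cell, 0 of 5 mast-cell, 1 of 7 neutrophil, 1 of 5 dendritic-cell, 2 of 5 astrocyte, 2 of 5 neuron, 3 of 4 oligodendrocyte and 3 of 5 fibroblast markers reached the median, the highest being Mbp at 7.57. Reaching the median therefore does not by itself show that a gene was expressed. In these bulk samples of 1 cell line, fewer cells expressing a gene and less RNA per cell cannot be told apart.

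**Figure D1:**
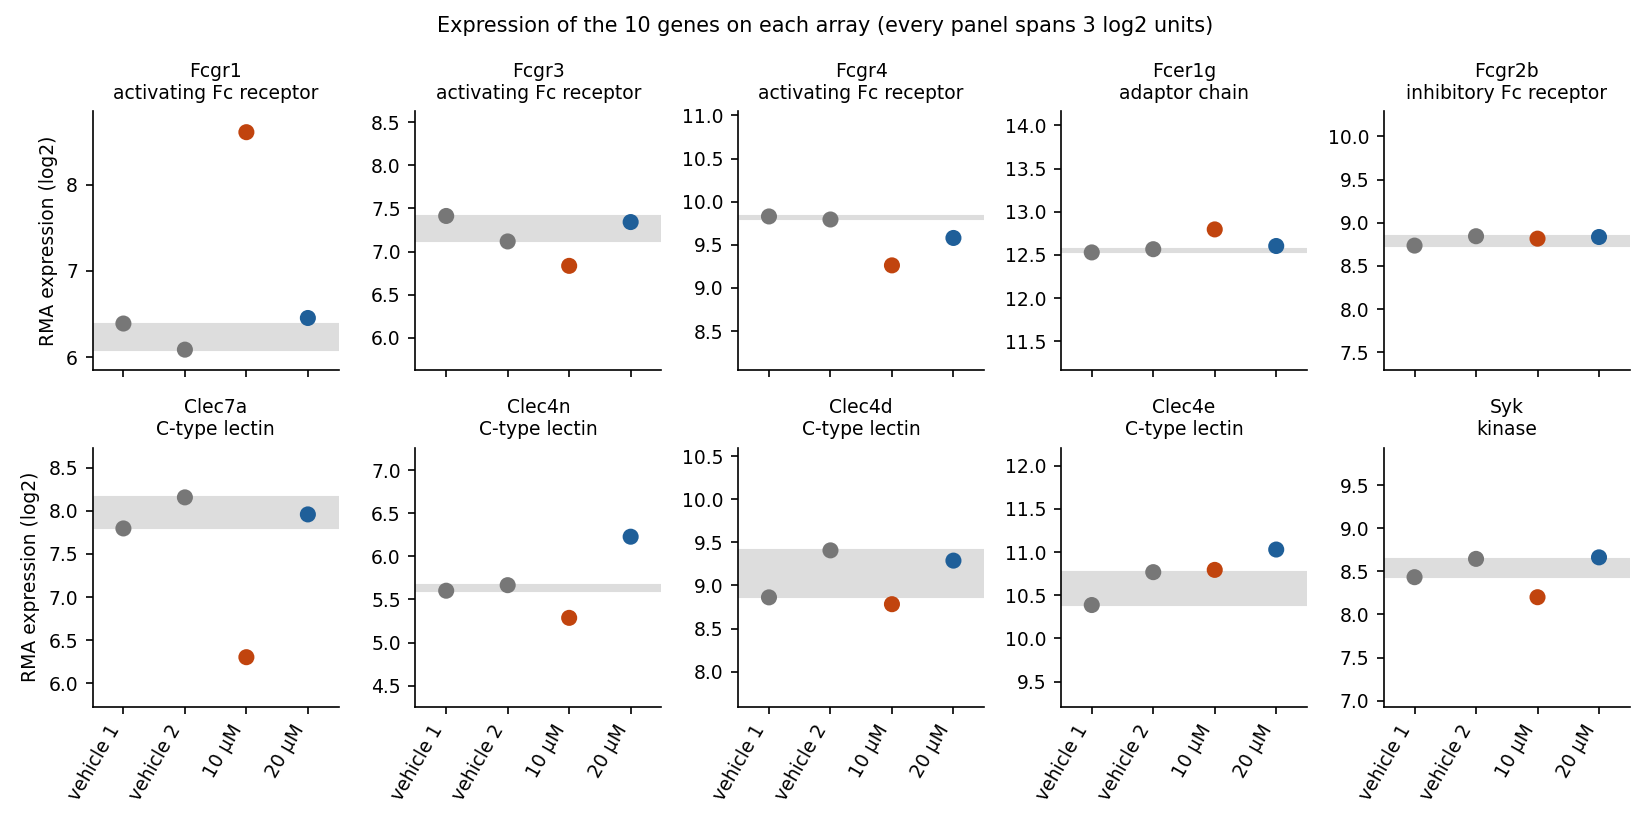
Log2 expression of the 10 genes on each of the 4 arrays, with vehicle in grey, 10 µM nimodipine in orange and 20 µM in blue; every panel spans 3 log2 units and the grey band is the range of the vehicle arrays. Fcgr1 had its highest value (8.61) and Clec7a its lowest (6.30) on the 10 µM array, while all 4 values of Fcgr2b lay between 8.74 and 8.84.

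The activating receptors differed from one another at 10 µM. Fcgr1 stood at 6.39 and 6.09 in vehicle, 8.61 at 10 µM and 6.45 at 20 µM. The 10 µM value lay far above both vehicle values, and the 20 µM value lay above the higher of them by 0.06, beside -0.30 for vehicle 2 minus vehicle 1. The difference at 10 µM was 2.37 on the log2 scale, 5.17-fold, the 13th largest on the high side among 22180 genes, and at 20 µM it was 0.22. Fcgr3, a lower-affinity activating receptor, stood at 7.41 and 7.12 in vehicle, 6.83 at 10 µM and 7.34 at 20 µM. It was lower than both vehicle arrays at 10 µM (difference -0.43) and between them at 20 µM. Fcgr4, an activating receptor for the IgG2 subclasses of the mouse, stood at 9.83 and 9.79 in vehicle, 9.26 at 10 µM and 9.58 at 20 µM. Both nimodipine arrays were below both vehicle arrays, by -0.55 and -0.23 from their mean, while vehicle 2 minus vehicle 1 was -0.04.

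The inhibitory receptor Fcgr2b stood at 8.74 and 8.84 in vehicle, 8.82 at 10 µM and 8.83 at 20 µM. Both doses lay between the vehicle arrays, and the differences were 0.03 and 0.05. Fcgr2b and Fcgr3 encode extracellular parts of closely similar sequence, and whether their probe sets share signal was not tested. Fcer1g, the chain that the activating receptors and several lectins depend on, stood at 12.53 and 12.57 in vehicle, 12.80 at 10 µM and 12.60 at 20 µM. Both nimodipine arrays were above both vehicle arrays, with differences of 0.25 and 0.06. Syk stood at 8.43 and 8.64 in vehicle, 8.20 at 10 µM and 8.66 at 20 µM, so it was below both vehicle arrays at the lower dose (-0.34) and 0.02 above the higher of them at the higher dose.

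Among the lectins, Clec7a had the widest range. It stood at 7.80 and 8.16 in vehicle, 6.30 at 10 µM and 7.96 at 20 µM. The 10 µM value was below both vehicle arrays and 3.19-fold below their mean (-1.67 on the log2 scale), the 45th largest difference on the low side, and the 20 µM value lay between them. Clec4n stood at 5.60 and 5.67 in vehicle, 5.29 at 10 µM and 6.23 at 20 µM. It was below both vehicle arrays at the lower dose (-0.35) and above both at the higher dose (0.59, or 1.51-fold), the 119th largest difference on the high side at 20 µM. Its mean over the arrays, 5.70, was the lowest of the 10 members. That level was near those of Gfap (5.61) and Olig2 (5.60), markers of other cell types. Clec4d stood at 8.86 and 9.41 in vehicle, 8.78 at 10 µM and 9.29 at 20 µM. Its vehicle arrays differed by 0.54, more than either dose differed from their mean (-0.35 and 0.15). Clec4e stood at 10.39 and 10.77 in vehicle, 10.79 at 10 µM and 11.03 at 20 µM. Both doses were above both vehicle arrays, with differences of 0.22 and 0.45 beside 0.38 between the vehicle arrays.

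**Figure D2:**
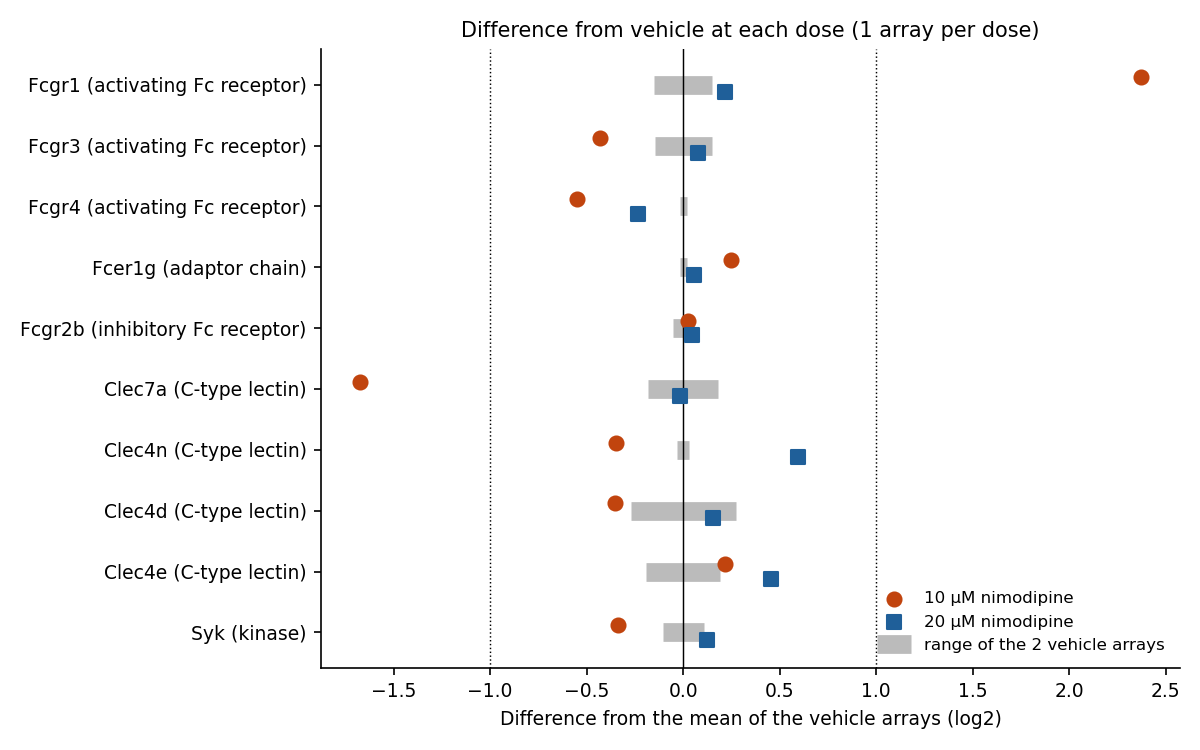
Log2 difference of each gene from the vehicle mean, with 10 µM as orange circles and 20 µM as blue squares, 1 array per dose; grey bars give the range of the vehicle arrays and dotted lines mark differences of 1. Fcgr1 (2.37) and Clec7a (-1.67) passed 1 at 10 µM, and at 20 µM the 10 differences lay between -0.23 and 0.59.

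At 10 µM, 1 of the 10 members was higher than the vehicle mean by 1 or more (Fcgr1), against 0.514% of all genes, and 1 was lower by 1 or more (Clec7a), against 1.06%. Since earlier results for this dose were known when the list was drawn up, nothing is read from these counts. At 20 µM 0 members passed 1 in either direction, against 0.0857% of all genes, and between the vehicle arrays 0 did, against 0.113%. The 10 µM array lay above both vehicle arrays for 3 members (39.1% of all genes) and below both for 6 (35.4%). The 20 µM array lay above both for 5 (34.5%) and below both for 1 (35.1%). The median difference of the 10 members was -0.34 at 10 µM and 0.10 at 20 µM, beside 0.01 and -0.00 over all genes. Both doses were set against the same vehicle arrays.

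With nimodipine taken as 1 group of 2 arrays against 2 vehicle arrays, limma called 0 of 10 members at an adjusted p under 0.05, and 0% of all genes. At an unadjusted p under 0.05 there was 1 of 10 members, Fcgr4, and 1191 of all 22180 genes. Fcgr4 was lower in nimodipine by -0.39 ± 0.15 (limma SE, 2 arrays per group; adjusted p = 0.793). Fcgr1 differed by 1.29 ± 0.64 (adjusted p = 0.793) and Clec7a by -0.84 ± 0.50 (adjusted p = 0.794). Their errors were wide because the 2 nimodipine arrays differed. With 1 array per dose, effects of dose and of the single array cannot be told apart. Clec4e differed by 0.33 ± 0.18 (adjusted p = 0.793), and the other 6 had adjusted p values between 0.839 and 0.973. Both doses exceeded both vehicle arrays for 3 members, Fcgr1, Fcer1g and Clec4e, against 19.2% of all genes, and below both for 1, Fcgr4, against 18.2%. In a fit of 3 groups, in which a single array is taken to vary as the vehicle arrays do (1 residual degree of freedom), limma called 1.59% of all genes at 10 µM. Fcgr1 and Clec7a were among them, but their differences at this dose were known when the list was drawn up, so nothing is read from it. At 20 µM nimodipine also had 1 array, so nothing is read from the same fit there.

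Activating and inhibitory Fc receptors and lectins were next compared as classes, using each gene's deviation from its own vehicle mean and not its level. The mean deviation of the 3 activating receptors was 0.11 and -0.11 in vehicle, 0.46 at 10 µM and 0.02 at 20 µM. That of Fcgr2b was -0.05 and 0.05, then 0.03 and 0.05. The activating class minus Fcgr2b was therefore 0.44 at 10 µM and -0.02 at 20 µM, with a vehicle SD of 0.23 (n = 2). Set against vehicle 2 alone it was 0.60 at 10 µM and 0.13 at 20 µM, and against vehicle 1 alone 0.28 and -0.18, so the sign at 20 µM depended on the vehicle array used. The sign at 10 µM came from 1 gene. Fcgr1 minus Fcgr2b was 2.34, Fcgr3 minus Fcgr2b was -0.46, and Fcgr4 minus Fcgr2b was -0.58. With Fcgr1 left out, a step chosen after the values were seen, the activating class minus Fcgr2b was -0.52 at 10 µM and -0.12 at 20 µM.

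The 4 lectins had a mean deviation of -0.17 and 0.17 in vehicle, -0.54 at 10 µM and 0.30 at 20 µM. Without Clec7a the means were -0.16 at 10 µM and 0.40 at 20 µM. Relative to Fcgr2b the lectins differed by -0.56 at 10 µM and 0.25 at 20 µM, beside a vehicle SD of 0.16, and the value at 20 µM was 0.14 against vehicle 2 alone and 0.36 against vehicle 1 alone. Relative to the activating receptors the differences were -1.0015 and 0.28, beside a vehicle SD of 0.39. The value at 20 µM was 0.001 against vehicle 2 alone and 0.55 against vehicle 1 alone. At 20 µM the lectin mean was led by Clec4n and Clec4e, which were 0.55 and 0.41 above Fcgr2b in their deviation. Clec4n was the dimmest of the 10 members, with a mean of 5.70 over the arrays. Each dose had 1 array and the members were chosen with results known, so no test was made of these class differences.

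**Figure D3:**
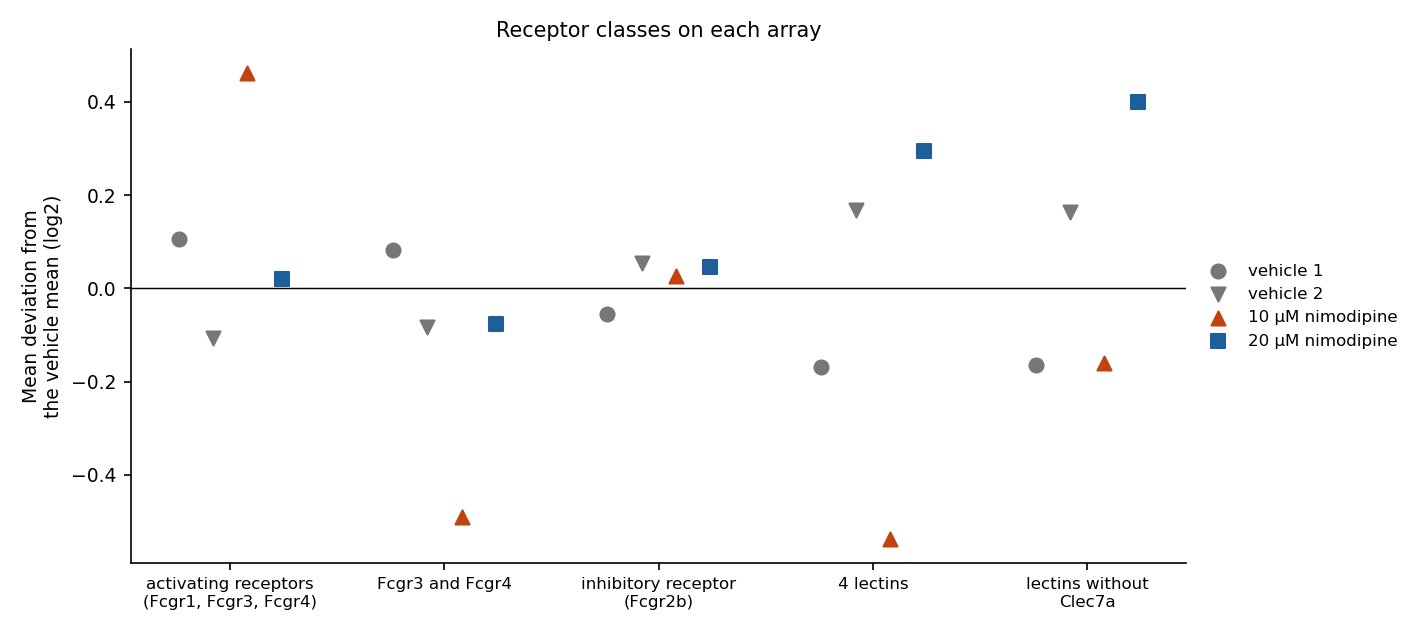
Mean log2 deviation from the vehicle mean of each receptor class on each array, with vehicle in grey, 10 µM in orange and 20 µM in blue. At 10 µM the activating mean was 0.46 with Fcgr1 and -0.49 for Fcgr3 and Fcgr4, Fcgr2b lay at 0.03, and the lectin mean was -0.54 with Clec7a and -0.16 without it.

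Members that lie side by side did not all move the same way at 10 µM. Fcgr2b, Fcgr4 and Fcgr3 follow one another among the measured protein-coding genes, and their differences at 10 µM were 0.03, -0.55 and -0.43. Clec4n, Clec4d and Clec4e also lie side by side, and at 10 µM they differed by -0.35, -0.35 and 0.22. At 20 µM these lectins were 0.59, 0.15 and 0.45 above the vehicle mean, beside 0.06, 0.54 and 0.38 between the vehicle arrays. Clec4d lay between its vehicle arrays at that dose. The genes flanking Clec7a, Clec1a and Olr1, stood at 3.43 and 4.14 over the arrays, below the overall median. Beside Fcgr1 lies the histone gene H2bc18, which was higher at 10 µM by 0.98 and differed by -0.07 at 20 µM, beside 0.40 between the vehicle arrays. The other flanking genes H4c14, BC107364 and Hjv were also higher at 10 µM, by 0.54, 0.43 and 0.23. At 20 µM these flanking genes differed by -0.40, 0.47 and 0.32, beside -0.03, 0.16 and -0.34 between the vehicle arrays. BC107364 stood at 4.09 over the arrays, below the overall median.

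The genes most like Fcgr1 over the 4 arrays, by root mean square distance of the deviations from the vehicle mean among 11649 genes, were Il23a (0.10), Aldh1l2 (0.17) and Avil (0.19). Il23a, a subunit of interleukin 23, stood at 6.67 and 6.50 in vehicle, 8.97 at 10 µM and 6.62 at 20 µM. The genes most like Clec7a were Rcan1 (0.08), an inhibitor of calcineurin, and the Toll-like receptor genes Tlr7 (0.10) and Tlr13 (0.12). Rcan1 stood at 9.03 and 9.22 in vehicle, 7.42 at 10 µM and 9.01 at 20 µM. Likeness over 4 arrays rests mostly on the 10 µM array.

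Downstream of the receptors, 15 of 23 measured genes of the ITAM signalling chain were lower than vehicle at 10 µM and 8 higher, with a median difference of -0.17. At 20 µM 9 were lower and 14 higher, with a median of 0.02. No gene of this list passed 1 at either dose. For this list and those below, the counts over all 22180 genes were 10556 lower and 11620 higher at 10 µM. At 20 µM 11237 of all genes were lower and 10940 higher. Pik3cg and Pik3cd, catalytic subunits of phosphoinositide 3-kinase, were 1.82-fold and 1.74-fold lower at 10 µM, and Btk, a kinase downstream of Syk, and Vav3 were 1.58-fold and 1.56-fold lower. At 20 µM these 4 differed by 0.03, -0.10, -0.07 and 0.08 on the log2 scale.

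The phosphatases and adaptors that oppose the cascade were lower at 10 µM in 8 of 9 cases, with a median of -0.26, and in 5 of 9 at 20 µM, with a median of -0.03. Csk, the kinase that holds Src-family kinases inactive, stood at 8.83 and 8.87 in vehicle, 7.46 at 10 µM and 8.79 at 20 µM. Ptpn6, which encodes the phosphatase SHP-1, stood at 10.57 and 10.52 in vehicle, 9.20 at 10 µM and 10.65 at 20 µM. For both genes the 10 µM value lay below both vehicle arrays, by 2.62-fold and 2.54-fold from their mean. Inpp5d, which encodes the SHIP1 that Fcgr2b recruits, was 1.70-fold lower at 10 µM, and Dok1, an adaptor, differed by -0.28, as much as the vehicle arrays differed between themselves (-0.28).

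A list of other adaptors and their partner receptors, which also held the adaptor gene Hcst and the inhibitory receptor gene Pirb, was lower at 10 µM in 8 of 13 cases, with a median of -0.19, and in 7 of 13 at 20 µM, with a median of -0.01. Cd300lb, an activating receptor of myeloid cells, stood at 8.15 and 8.69 in vehicle, 6.69 at 10 µM and 8.68 at 20 µM, the largest difference in this list at 10 µM. Clec5a, a Syk-coupled lectin-like receptor that pairs with the adaptor encoded by Tyrobp, was 1.85-fold lower at 10 µM, and Cd300ld was 1.58-fold lower. Treml4 differed by 0.24. Tyrobp itself differed by 0.06 at 10 µM and 0.12 at 20 µM.

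Of 29 other C-type lectin genes, 8 had means that reached the overall median, so the list's medians (-0.01 at 10 µM and -0.05 at 20 µM) rest mostly on dim probe sets. Clec4a3, a relative of Clec4n from the same gene cluster, was 2.08-fold lower at 10 µM and differed by -0.30 at 20 µM, beside 0.30 between the vehicle arrays. Clec10a, Mrc2 and Mrc1 differed by -0.44, 0.30 and 0.11 at 10 µM. Among 11 other Fc receptor genes, 4 of which reached the overall median, the median differences were 0.01 and 0.16. Fcgrt, the neonatal receptor that recycles immunoglobulin G, stood at 9.01 and 8.94 in vehicle, 8.33 at 10 µM and 9.65 at 20 µM. It was thus below both vehicle values at the lower dose and above both at the higher one. Trim21, the cytosolic antibody receptor, was 1.62-fold lower at 10 µM, and Fcrl1 and Fcrlb differed by -0.34 and 0.27.

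Of 24 genes of the phagocytic cup and of opsonin and scavenger receptors, 15 were lower and 9 higher at 10 µM (median -0.13), and 13 were lower and 11 higher at 20 µM (median -0.00). Cd14, the co-receptor for lipopolysaccharide, was 2.23-fold lower at 10 µM and lay between the vehicle arrays at 20 µM. Myo1f, a myosin of phagocytes, and Coro1a, an actin-binding protein, were 1.89-fold and 1.71-fold lower at 10 µM. Msr1, a scavenger receptor, differed by -0.91, and its vehicle arrays differed by 0.59. Across these lists, limma called 0 genes for nimodipine against vehicle.

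Of 14 measured transcription factor genes listed as possible regulators of this set, 8 were lower and 6 higher at 10 µM, with a median of -0.14. At 20 µM 9 were lower and 5 higher, with a median of -0.04. The list held Ddit3 and Atf4, stress regulators whose action on the members was not tested. Ddit3 and Atf4 were 10.3-fold and 2.79-fold higher at 10 µM and 1.09-fold and 1.02-fold higher at 20 µM. Cebpb, on which induction of Clec4e in macrophages depends, was 1.41-fold higher at 10 µM, and Cebpe differed by -0.53. Spi1, which encodes PU.1, differed by 0.16 and 0.11. Among the factors of interferon signalling Irf1 differed by 0.18 at 10 µM and 0.48 at 20 µM, Stat2 by -0.26 and -0.33, and Irf9 by -0.50 and -0.02.

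**Figure D4:**
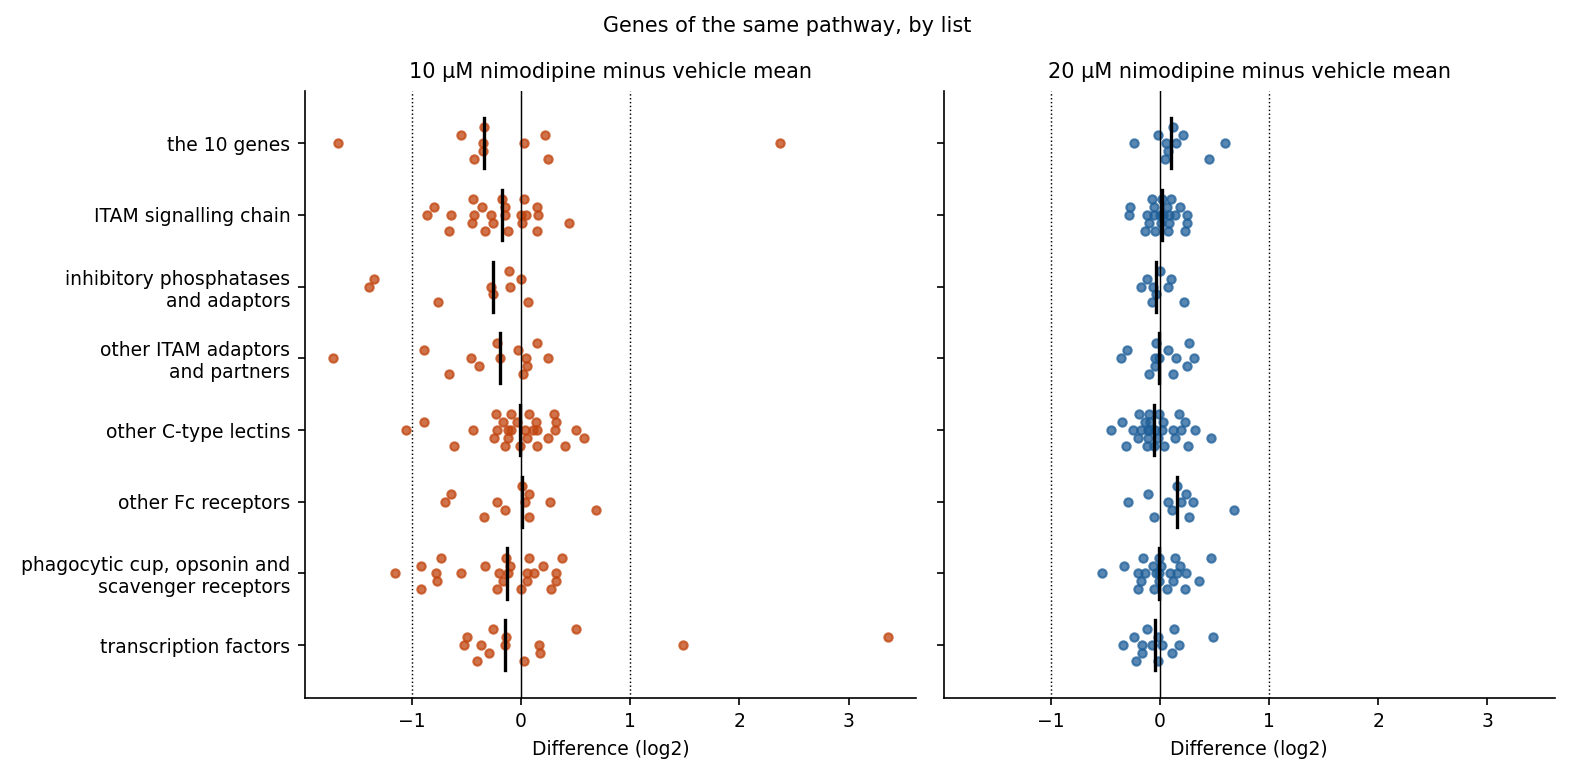
Log2 difference from the vehicle mean of every measured gene of each list at 10 µM (left) and 20 µM (right), with a black bar at the list's median and dotted lines at 1 and -1. At 10 µM the medians ran from -0.34 for the 10 genes to 0.01 for other Fc receptors, the only list whose median lay above 0. At 20 µM every list's median lay between -0.05 and 0.16.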

How the data were processed

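N9 RNA was extracted with TRIzol and prepared with Affymetrix WT PLUS reagents, per the labels' protocols. The authors deposited log2 expression values per probe set, computed by RMA in Affymetrix Expression Console 1.2.1.20, per the submitters' processing notes. RMA corrects background, quantile-normalizes the arrays and summarises probes by median polish. The number of arrays limits the precision.

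Of 41345 probe sets, 23521 had exactly 1 gene symbol in the array annotation. For a gene with several, the probe set with the highest mean was used, which left 22180 genes. Nimodipine (2 arrays) was compared with vehicle (2 arrays) by limma 3.58.1 (R 4.3.3, lmFit and eBayes), and p-values were adjusted over all 22180 genes (Benjamini-Hochberg, called under 0.05). The script was checked on simulated data. Each dose was set against the vehicle mean as a difference without a test. A limma fit of 3 groups, with 1 array per dose and the spread taken from the vehicle arrays, was an alternative. The labels do not say which vehicle belongs to which dose, and if each dose had its own, their spread would include that difference.

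The members and gene lists were chosen with earlier results of these data known. Named besides the 10 members were the 3 genes nearest to the member with the largest and to that with the smallest difference at 10 µM (predicted genes and small RNAs passed over), and from each list up to 4 genes with the largest difference at 10 µM and a mean reaching the overall median. Tyrobp, Hcst, Pirb, Spi1, Irf1, Stat2, Irf9, Mbp, the quoted microglia markers and the flanking genes fall outside that rule and were named after their values were seen. A protein comparison was not made here. The settings varied were the scaling (cyclic loess, or arrays set to 1 median), the probe sets (dim ones dropped, every probe set, or their average per gene), eBayes (trend or robust), dose as a number, 3 groups and leaving out each array.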

Additional observations from a re-analysis of the deposited data

Results flagged for a closer look

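Clec4n (Dectin-2) and Syk lay below both vehicle arrays at 10 µM and above both at 20 µM, so that the single arrays of the doses moved to opposite sides. The 20 µM minus 10 µM difference was 0.94 on the log2 scale for Clec4n and 0.46 for Syk. Clec4n had the lowest mean level of the members, 5.70 over the arrays. With 1 array per dose this difference was not tested. The pattern was present in 2 of 10 members (20.0%) and in 4195 of 22180 genes (18.9%), so its share among the members was near that over all genes.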

How the results depend on the processing

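For nimodipine against vehicle limma called 0 genes in the main analysis, 12 in the fit of 3 groups, and 0 to 353 when each array was left out in turn. The 353 were reached without the 20 µM array, which leaves nimodipine with 1 array, assumed to vary like the vehicle arrays, and is the same contrast as 10 µM in the fit of 3 groups. The difference changed sign for 5 members when single arrays were left out, with ranges of -0.0185 to 0.0901 for Fcgr2b, -0.37 to 0.17 for Clec4d, -0.431 to 0.0771 for Fcgr3, -0.34 to 0.12 for Syk and -0.35 to 0.59 for Clec4n. With dose as a number the slope was 0.0038 log2 per µM for Clec4d and 0.0025 for Syk, both opposite in sign to the group difference. At 10 µM, leaving out Fcgr1 gave -0.52 for activating minus inhibitory receptors and -0.0484 for lectins minus activating receptors, and leaving out Clec7a gave -0.19 for lectins minus the inhibitory receptor. With 1 vehicle array left out, activating minus inhibitory receptors ranged over 0.28 to 0.60 at 10 µM and -0.18 to 0.13 at 20 µM, and lectins minus activating receptors over 0.001 to 0.55 at 20 µM. For the class differences these omissions of genes and vehicle arrays were chosen after seeing the data. The cause of these shifts was not tested beyond the arrays or genes left out. The doses have 1 array each, the class means hold 1 to 4 genes, and probe sets near the background have compressed differences.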
